A study of Homo sapiens with 2 samples.

Results

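The S100 proteins are small calcium-binding proteins of vertebrates, and 10 of their genes (S100A3, S100A4, S100A6, S100A8, S100A9, S100A10, S100A11, S100A14, S100A16 and S100P) are described here, of 36601 genes in the matrices and 21 genes of the S100 family among them. They were taken by gene symbol, and all 10 were found, each listed once. The members were chosen by measured values, namely their CPM, shares of cells and the concentration of S100A8 and S100A9 UMIs in few cells in these same libraries, so the values below are descriptions and none is a test. Single-cell RNA was measured in colon organoids, and their source was the human iPS cell line 1383D6, which is an established line. All cells passed through Activin A and then FGF2, were embedded in Matrigel, and were driven towards colon with agents that included EGF, forskolin, the MEK inhibitor PD98059 and 5-Aza-2'-Deoxycytidine, so both groups carry these treatments. The control culture (CNT) received no cytokine. The other culture (3CK) received TNF-α, IFN-γ and IL-1β together for 8 days, and the labels name no other difference between the groups. Each group is 1 library of a single cell line, so no difference could be tested across replicates, and every interval below covers counting error only.

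An S100 protein carries a pair of calcium-binding loops called EF hands, and in most members calcium exposes a surface that grips a target protein. S100A10 is the exception, since its loops no longer bind calcium and it stays bound to annexin A2. S100A8 and S100A9 pair to form calprotectin, which withholds zinc and manganese from microbes, fills neutrophils and monocytes, is also made by squamous and inflamed epithelia, and is measured in stool as a sign of intestinal inflammation.

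Of the 10 genes, 9 lie on chromosome 1 and S100P lies on chromosome 4. In GRCh38, S100A9 (153357854-153361023, plus strand), S100A8 (153390032-153391073, minus), S100A6 (153534599-153536244, minus), S100A4 (153543613-153550136, minus), S100A3 (153547329-153549258, minus), S100A16 (153606886-153613145, minus) and S100A14 (153614255-153616986, minus) form a cluster of 259 kb. S100A10 (151982915-151993859, minus) and S100A11 (152032506-152047907, minus) lie apart from it on the same chromosome, and S100P is at 6693878-6697170 on the plus strand of chromosome 4. Each gene is protein coding, with 2 to 4 exons in its MANE Select transcript. S100A3 lies inside the span of S100A4 on the same strand, so a read between them could be counted for either. S100A11 has 8 named pseudogenes in GENCODE and none of them is in the matrices, so reads from a copy could add to S100A11.

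The 250 bases before the start of the genes that the results turn on are shown next, S100A8 and S100A9 because their RNA sat in few cells, and S100A3, S100A6 and S100P because they were at least 2-fold higher in 3CK epithelial cells. The sequences are from RefSeq on GRCh38.p14, read 5′ to 3′ on the strand of the gene, and all 10 members had a window at their MANE start. Capitals mark matches, on either strand, to any of 6 motifs. For NF-kB these are GGG and CC with any 5 bases between, for ISRE GAAA and GAAA with any 2 bases between, for C/EBP the letters TTGCNNAA, for GAS TTCNNNGAA, for AP-1 TGANTCA and for the TATA box TATAAA. Some NF-kB matches overlap each other.
S100A8 (chr1:153391074-153391323, minus): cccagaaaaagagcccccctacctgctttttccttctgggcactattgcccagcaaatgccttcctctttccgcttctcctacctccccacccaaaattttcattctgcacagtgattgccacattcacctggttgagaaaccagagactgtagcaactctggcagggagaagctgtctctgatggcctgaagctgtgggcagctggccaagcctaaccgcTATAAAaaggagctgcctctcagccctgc
S100A9 (chr1:153357604-153357853, plus): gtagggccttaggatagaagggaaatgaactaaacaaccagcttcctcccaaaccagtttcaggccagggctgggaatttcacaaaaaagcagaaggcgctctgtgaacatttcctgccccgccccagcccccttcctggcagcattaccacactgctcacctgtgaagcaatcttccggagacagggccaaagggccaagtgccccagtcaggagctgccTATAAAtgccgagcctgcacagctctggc
S100P (chr4:6693628-6693877, plus): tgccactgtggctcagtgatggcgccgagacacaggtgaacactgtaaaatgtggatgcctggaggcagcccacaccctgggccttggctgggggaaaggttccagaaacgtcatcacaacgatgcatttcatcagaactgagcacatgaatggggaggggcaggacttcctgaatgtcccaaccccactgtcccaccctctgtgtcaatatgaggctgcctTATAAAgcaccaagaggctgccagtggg
S100A3 (chr1:153549259-153549508, minus): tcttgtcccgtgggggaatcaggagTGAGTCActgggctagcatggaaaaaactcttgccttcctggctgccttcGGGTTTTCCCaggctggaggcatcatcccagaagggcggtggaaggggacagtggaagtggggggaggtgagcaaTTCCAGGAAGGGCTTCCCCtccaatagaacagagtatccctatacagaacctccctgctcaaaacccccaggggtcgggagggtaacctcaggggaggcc
S100A6 (chr1:153535992-153536241, minus): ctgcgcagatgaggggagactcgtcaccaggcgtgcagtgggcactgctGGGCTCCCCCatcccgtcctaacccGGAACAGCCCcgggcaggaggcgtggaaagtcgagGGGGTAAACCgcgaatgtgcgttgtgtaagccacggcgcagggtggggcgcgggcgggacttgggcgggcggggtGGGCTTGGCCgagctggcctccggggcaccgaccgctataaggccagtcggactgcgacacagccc

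The windows of S100A8, S100A9, S100P and S100A4 held a TATA match that began 28 to 31 bases before the start, a motif present in 10.7% of 35114 windows of that length. The S100A3 window held 2 NF-kB matches, a GAS match that ends next to one of them, and an AP-1 match. The GAS letters were in 6.57% of all windows, and the AP-1 letters in 6.57% as well. The NF-kB letters were in 7 of the 10 member windows and in 54.4% of all windows, so their presence separates few genes. The C/EBP letters, in 9.05% of windows, were found in S100A11 alone among the members, and the ISRE letters, in 3.02%, in none.

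After filtering, 2487 CNT and 1398 3CK cells remained, with 101831571 and 91860414 unique molecular identifiers (UMIs, 1 per captured RNA molecule), and the libraries shared 0 cell barcodes. Epithelial cells had at least 2 EPCAM UMIs per 10000 and were 1660 CNT cells (66.7%) and 1016 3CK cells (72.7%). Mesenchymal cells had at least 5 UMIs per 10000 of COL1A1, COL1A2 and COL3A1 together with under 1 of EPCAM, and were 574 (23.1%) and 124 (8.87%). The remaining 253 and 258 cells met neither definition. Near the EPCAM boundary, 88 CNT and 71 3CK cells had 2 to 3 EPCAM UMIs per 10000, and 87 and 83 had 1 to 2. Of the epithelial cells, 497 in CNT and 49 in 3CK also had at least 5 UMIs per 10000 of the 3 collagen genes. The epithelial classes thus differed in mixed content, and its part in the epithelial ratios was not tested. The summed level of 10 epithelial markers was 2165 and 2367 CPM (the UMIs of a gene scaled to the UMI total of its class) in the epithelial cells of CNT and 3CK, and 102 and 130 in the mesenchymal cells. For 10 mesenchymal markers the sums were 1588 and 847 CPM in epithelial and 14822 and 9577 in mesenchymal cells. The labels call the cultures colon: CDX2, an intestinal transcription factor, was at 80.6 and 83.3 CPM in epithelial cells and MUC2, the goblet cell mucin, at 1.04 and 0.642. Markers of liver and yolk sac were far higher there, with TTR at 64857 and 19491 CPM and AFP at 7163 and 2163. The median depth of epithelial cells was 37785 UMIs in CNT and 72198 in 3CK, and that of mesenchymal cells 23450.5 and 65363, so shares of cells with a UMI were compared after thinning every cell to 5000 UMIs.

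The 10 genes together took up more of the RNA in the cytokine-treated library. In epithelial cells the 10 members were 1.54% of all UMIs in CNT and 2.16% in 3CK, and in mesenchymal cells 0.847% and 1.30%. S100A6, S100A10, S100A11 and S100A4 made up 88.95% to 97.9% of the members' UMIs in both classes of both libraries. S100A6 was the highest member in all 4. S100A10 came next in CNT and S100A11 in 3CK, in epithelial and in mesenchymal cells. S100A8 was the lowest member in all 4. CPM here counts 3′ ends, so gene length does not enter it.

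S100A6, or calcyclin, binds the ubiquitin adaptor CACYBP and annexin A11. It stood at 5631 CPM in CNT and 11374 in 3CK epithelial cells, and at 3279 and 6263 in mesenchymal cells. Both classes were thus about equally displaced, by 2.02-fold (log2 ratio 1.01, interval 1.01 to 1.02) and by 1.91-fold (0.93, 0.92 to 0.95). Nearly every cell carried it, with a UMI in 97.3% of 1062 thinned CNT and 99.5% of 776 thinned 3CK epithelial cells. The median epithelial cell with at least 10000 UMIs held 42.8 S100A6 UMIs per 10000 in CNT and 88.3 in 3CK. The higher level was therefore seen in the middle of the distribution and not in a few cells. With a total that leaves out mitochondrial, ribosomal and the 50 most abundant genes, the epithelial log2 ratio was 0.90, under 2-fold, and with each cell weighted equally it was 0.92.

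S100A11, a partner of annexin A1, stood at 1994 CPM in CNT and 3557 in 3CK epithelial cells, and at 1604 and 3061 in mesenchymal cells. Its log2 ratios were 0.84 (0.83 to 0.84) and 0.93 (0.91 to 0.96). S100A10, the annexin A2 partner, was at 4789 and 3408 CPM in epithelial cells, lower in 3CK (log2 ratio -0.49, -0.50 to -0.48), and at 2280 and 2317 CPM in mesenchymal cells (0.02, with an interval from -0.0008 to 0.05 that includes 0). This pair of abundant members changed places in 3CK. S100A4, which binds non-muscle myosin and is widely used as a marker of fibroblasts, was close to level in both classes. It was at 1309 and 1255 CPM in epithelial cells (-0.06, -0.07 to -0.05) and at 1128 and 1072 in mesenchymal cells (-0.07, -0.11 to -0.04). In CNT its epithelial level was 1.16 times its mesenchymal level, so it did not set the classes apart.

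S100P, known from placenta and a partner of ezrin, was mainly epithelial. It stood at 218 CPM in CNT and 618 in 3CK epithelial cells, 2.84-fold higher (log2 ratio 1.51, 1.48 to 1.53). Mesenchymal cells had 21.2 and 41.8 CPM (0.98, 0.78 to 1.19). The share of thinned epithelial cells with an S100P UMI was 34.5% (366 of 1062, 31.6% to 37.4%) in CNT and 68.2% (529 of 776, 64.8% to 71.4%) in 3CK. Without thinning the shares were 49.8% and 83.7%. In thinned mesenchymal cells, with median depths of 23450.5 and 65363 UMIs before thinning, 5.00% of 320 and 13.1% of 107 had one. A share with a UMI moves with the mean level, which was 1.10 and 3.19 UMIs per thinned epithelial cell, so the shares do not separate more cells from more RNA per cell. Of epithelial cells with at least 10000 UMIs, 28.8% in CNT and 3.97% in 3CK had no S100P UMI.

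S100A3, known from the hair cuticle, had the largest epithelial ratio of the 9 members with at least 1 CPM when all cells were counted. It stood at 28.1 CPM in CNT and 154 in 3CK epithelial cells, 5.47-fold higher (log2 ratio 2.45, 2.39 to 2.52), and at 15.7 and 34.6 CPM in mesenchymal cells (1.14, 0.90 to 1.37). The counting intervals of its epithelial and mesenchymal ratios did not meet, although whether the classes differ could not be tested with 1 library each. A UMI was found in 8.66% of thinned CNT epithelial cells (92 of 1062) and 30.8% of 3CK ones (239 of 776), and without thinning in 23.8% and 61.6%. In mesenchymal cells the thinned shares were 5.00% and 16.8%. With no doublets removed the mesenchymal log2 ratio was 0.90, and with no filter on cells 0.95, both under 2-fold.

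S100A14 and S100A16, neighbours on chromosome 1, were the other members of epithelial character. S100A14 stood at 688 CPM in CNT and 422 in 3CK epithelial cells, lower in 3CK (log2 ratio -0.71, -0.73 to -0.69), and at 15.1 and 5.27 CPM in mesenchymal cells (-1.52, -1.99 to -1.08, from 297 and 48 UMIs). Its epithelial level was 45.5 times its mesenchymal level in CNT and 80.1 times in 3CK, the largest such ratio among the members in each library. Thinned mesenchymal cells averaged 0.053 and 0.037 S100A14 UMIs, against 3.34 and 2.05 in epithelial cells. TTR, a gene of other cells, averaged 8.67 and 1.45 against 304 and 97.8. The mesenchymal level and ratio of S100A14 are therefore not read as expression. The thinned share of epithelial cells with an S100A14 UMI was 72.5% in CNT and 54.4% in 3CK. S100A16 stood at 742 and 796 CPM in epithelial cells (0.10, 0.08 to 0.12) and at 123 and 202 in mesenchymal cells (0.71, 0.62 to 0.80). The epithelial ratio of S100A16 turned to -0.02 with the total that leaves out the most abundant genes, so its direction there depended on the scaling.

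**Figure D1:**
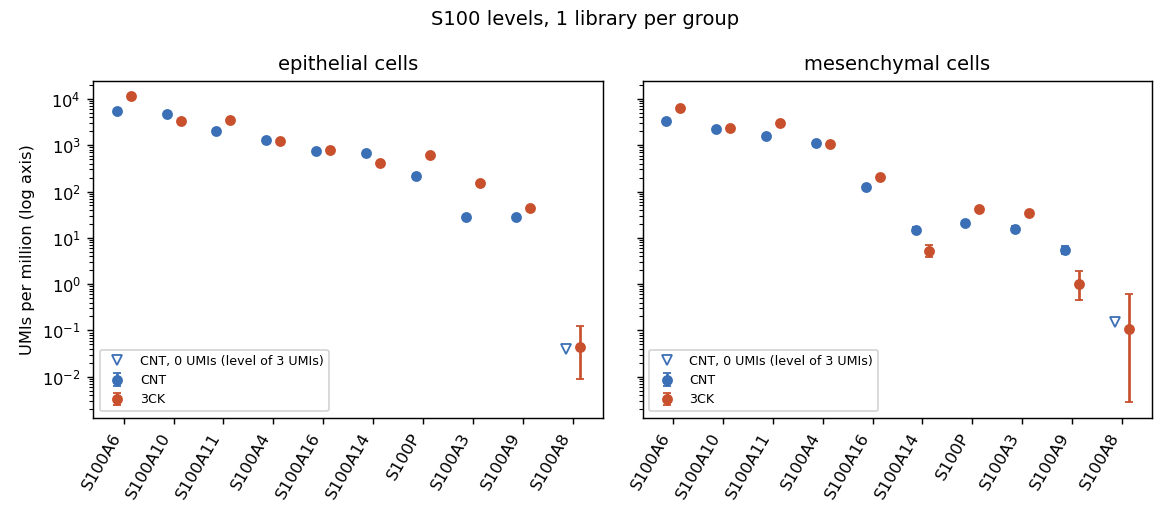
Level of the 10 members in CPM on a log axis, in epithelial and mesenchymal cells of the CNT and 3CK libraries, with exact 95% Poisson intervals (counting error only); the open triangle marks a library with 0 UMIs at the level of 3 UMIs. S100A6 is highest in each panel, S100A3 and S100P are higher in 3CK, and S100A8 sits at or near 0 in both classes.

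In epithelial cells 9 of the 10 members reached 1 CPM in either library, and 3 of them (S100A3, S100A6 and S100P) were at least 2-fold higher in 3CK, where 8.48% of 16809 genes were. None of the 9 was at least 2-fold lower, where 12.1% of genes were. The median log2 ratio was 0.66 for these 9 and 0.01 for all genes. That 0.66 is the ratio of S100A9 itself, a gene whose UMIs sat in few cells. In mesenchymal cells 1 of 9 (S100A3) was at least 2-fold higher, against 6.05% of 17353 genes (0 to 4 under the alternatives, with 4 under TMM scaling and under stricter classes), and 2 (S100A9 and S100A14) were lower, against 16.7%. The medians were 0.71 and -0.21. With a minimum of 10 CPM the mesenchymal counts were 1 of 8 higher, against 4.8% of 10272 genes, and 1 lower, against 9.59%. The members were chosen with these ratios known, so the counts are not evidence about the family.

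Among the other S100 genes, 3 were far lower in 3CK epithelial cells. S100A13, which takes part in the export of interleukin-1α and FGF1, stood at 1474 CPM in CNT and 601 in 3CK (log2 ratio -1.29, -1.31 to -1.28). S100A1, the S100 protein of muscle, stood at 58.8 and 7.20 CPM (-3.03, -3.16 to -2.90), and S100G, the intestinal calcium carrier calbindin-D9k, at 162 and 4 UMIs (-5.22, -7.11 to -3.84). The 10 leading cells held 84.0% of the CNT S100G UMIs. Leaving out 10 cells of each library takes all 4 3CK UMIs, so the -3.00 it gives is an upper bound, set by a floor of 3 UMIs. S100A2 was at 8.49 and 7.60 CPM (-0.16, an interval from -0.33 to 0.0077 that includes 0) and S100Z at 6.75 and 5.35 (-0.34). Of the 5 other family members with at least 1 CPM, 3 were thus at least 2-fold lower, where 12.1% of all genes were, and 0 higher. Within ranges of TTR content (under 50, 50 to 500 and over 500 UMIs per 10000) S100A13 passed 2-fold in none (-0.16, -0.85 and -0.89 from low to high TTR), and in CNT it was at 408, 1176 and 1822 CPM across them. In mesenchymal cells S100A13 was at 394 and 419 CPM (0.09, 0.03 to 0.14), S100A2 at 7.69 and 13.6 (0.82), S100Z at 12.6 and 4.94 (-1.35), S100A5 at 12 and 13 UMIs (1.22, an interval from -0.03 to 2.49), and S100A1 had 34 and 2 UMIs (-2.98, -6.08 to -1.02). S100A1 and S100A13 overlap on opposite strands. S100A7, S100A7A, S100A7L2, S100A12 and S100B had 8 UMIs or fewer in the epithelial and in the mesenchymal cells of each library.

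Along chromosome 1 neighbouring genes differed in their epithelial ratios. From S100A3 outward in one direction they were 2.45 for S100A3, -0.16 for S100A2, 0.10 for S100A16, -0.71 for S100A14, -1.29 for S100A13 and -3.03 for S100A1. On the other side of S100A3 they were -0.06 for S100A4, -0.30 for S100A5 (28 and 21 UMIs), 1.01 for S100A6 and 0.66 for S100A9. S100A4, which spans S100A3, was level while S100A3 was 5.47-fold higher, so the neighbours did not share a ratio.

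**Figure D2:**
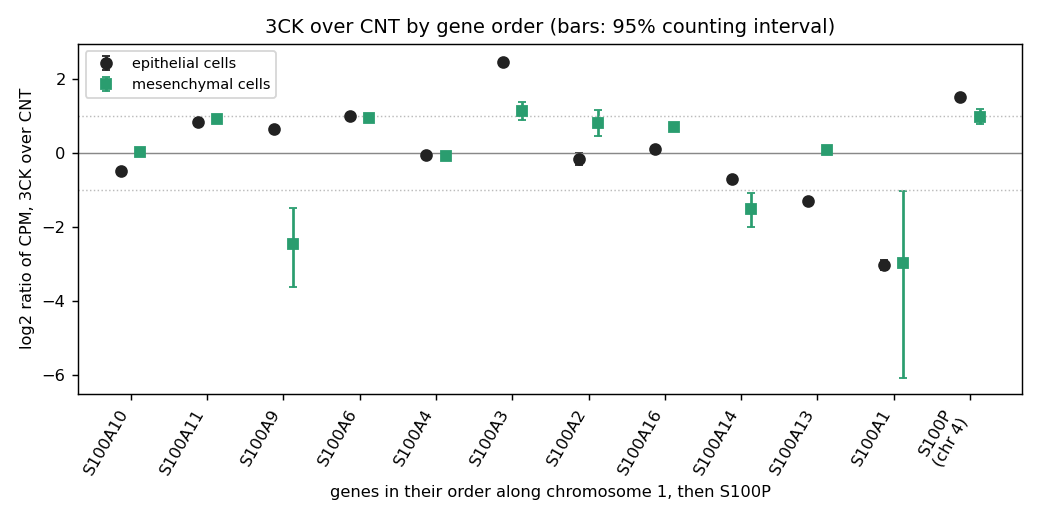
Log2 ratio of CPM, 3CK over CNT, for 9 members and for S100A1, S100A2 and S100A13, in their order along chromosome 1 and then S100P, in epithelial cells (circles) and mesenchymal cells (squares), with 95% counting intervals and dotted lines at 2-fold. S100A3 (2.45) and S100P (1.51) are the highest epithelial values and S100A1 (-3.03) the lowest, and S100A9 lies on opposite sides of 0 in the classes.

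Epithelial cells differed between the libraries in their content of TTR, the transthyretin gene of liver and yolk sac, and so the ratios were recomputed within ranges of TTR UMIs per 10000. The range under 50 held 98 CNT and 284 3CK cells, that from 50 to 500 held 942 and 650, and that over 500 held 620 and 82. TTR itself was 3.33-fold lower in 3CK epithelial cells, so a range does not hold the same cells in both libraries. S100A6 was higher in 3CK in each range (log2 ratios 0.61, 1.18 and 1.08 from low to high TTR), and so were S100A3 (0.75, 2.59 and 2.73) and S100P (0.22, 1.65 and 1.44). S100A10 was below 0 in each (-0.82, -0.28 and -0.18). The median of all genes was also below 0, at -0.18, -0.34 and -0.19 from low to high TTR. With all cells counted, S100A10 was under that median in the lowest range only. S100A16 was at 0.60, 0.38 and 0.27, but the last turned to -0.11 without the 10 cells of each library with most of its UMIs. With 620 CNT and 82 3CK cells in that range, the removal takes a larger part of 3CK and by itself favours a lower ratio.

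For S100A14 and S100A4 the ranges and the whole class differed. S100A14 was higher in cells with more TTR, at 166, 548 and 855 CPM from the low to the high range in CNT and at 233, 447 and 833 in 3CK. Its log2 ratios within the ranges were 0.49, -0.29 and -0.04, none as low as the -0.71 of the whole class. Each was above the median of all genes in its range, although the last was -0.66 without the 10 leading cells of each library. The range over 500 held 620 CNT and 82 3CK cells, so that removal takes a larger part of 3CK and by itself favours a lower ratio. S100A4 was at 2450 CPM in CNT and 838 in 3CK cells with little TTR (-1.55), and at 1148 and 1362 (0.25) and 1259 and 1780 (0.50) in the higher ranges. Its ratio of -0.06 over the class thus combined a lower value in cells with little TTR and higher values in the others. Without the 10 leading cells of each library its ratios from low to high TTR were -1.38, 0.32 and 0.14, the last with the same unequal removal. S100A11 was level in the lowest range (-0.03, and 0.33 without the 10 leading cells) and higher in the other ones (0.94 and 0.74). The ratios of S100A3 and S100P in the lowest range rested on few cells: without the 10 cells with most UMIs of the gene in each library they were 2.60 and 1.60. The lowest range held 98 CNT and 284 3CK cells, so this removal takes a larger part of CNT and by itself favours a higher ratio. The same applies to the values of S100A4 and S100A11 in that range without their leading cells.

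**Figure D3:**
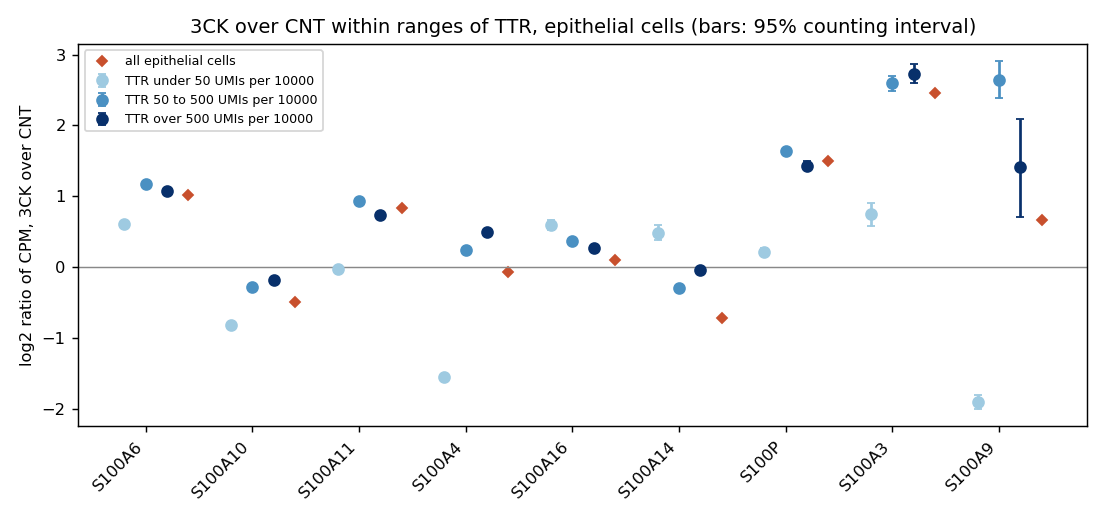
Log2 ratio of CPM, 3CK over CNT, of 9 members within ranges of TTR UMIs per 10000 in epithelial cells (circles, with 95% counting intervals) and over all epithelial cells (diamonds). S100A3, S100A6 and S100P lie above 0 in each range, and S100A10 lies below 0 in each. S100A4, S100A9 and, barely, S100A11 lie below 0 in the lowest range and above 0 in the other ones. In the lowest range S100A11 is at -0.03, or 0.33 without its 10 leading cells in each library, a removal that by itself favours a higher ratio. The median of all genes, not drawn, was -0.18, -0.34 and -0.19 from low to high TTR.

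Smaller groups of cells gave the following values. In 229 CNT and 24 3CK epithelial cells with at least 20 FABP1 and FABP2 UMIs per 10000, genes of fatty acid uptake in enterocytes, S100P was at 448 and 1236 CPM (log2 ratio 1.46), above its level in all epithelial cells in both libraries. S100A6 was at 5483 and 8157 CPM there (0.57). In 64 CNT and 41 3CK epithelial cells with at least 3 UMIs per 10000 of MKI67, TOP2A and CENPF, S100A3 was at 2 and 104 UMIs, S100A4 at 1744 and 902 CPM (-0.95) and S100P at 236 and 663 CPM (1.49). Of the endocrine cells, with at least 5 CHGA and CHGB UMIs per 10000, there were 10 and 2, and S100A3 had 0 UMIs in both.

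Most S100A9 RNA sat in a few cells of each library, and its ratio depended on whether those were counted. Epithelial cells held 2157 UMIs in CNT, or 28.3 CPM, and 3142 in 3CK, or 44.8 CPM (log2 ratio 0.66, 0.58 to 0.74). In CNT 61 of 1660 epithelial cells had a UMI, 41 of them a single one, and in 3CK 163 of 1016, of which 81 had a single one. One CNT cell held 1175 UMIs, or 54.5%, and the 10 leading cells held 96.3%. In 3CK the leading cell held 811 UMIs, or 25.8%, and the 10 leading cells 75.4%. For comparison, the 10 leading cells of each library held 5.73% and 6.55% of S100A6 UMIs and 30.0% and 15.96% of S100A3 UMIs.

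The ratio was larger when leading cells were left out. Without the leading cell of each library the level was 12.9 CPM in CNT and 33.3 in 3CK (log2 ratio 1.37), and without the 10 leading cells it was 1.06 CPM (80 UMIs) and 11.2 CPM (774 UMIs), a log2 ratio of 3.40. CNT had 8 epithelial cells with at least 20 UMIs and 3CK had 22, so leaving out 10 from each takes all of them in CNT and not in 3CK, and the 3.40 is in part set by that removal. The thinned share of epithelial cells with an S100A9 UMI was 1.51% in CNT (16 of 1062, 0.864% to 2.44%) and 4.51% in 3CK (35 of 776, 3.16% to 6.22%). The same share in mesenchymal cells was 2 of 320 in CNT and 0 of 107 in 3CK, where 3 counts of 107 would be 2.80% of cells with a UMI at that depth. Without thinning, 3.67% and 16.04% of epithelial cells had a UMI, and 2.26% and 7.26% of mesenchymal cells, and all 9 such mesenchymal cells of 3CK had a single UMI. Stricter classes, with at least 5 EPCAM UMIs per 10000, gave an epithelial log2 ratio of 3.48, and removal of 5% of barcodes as doublets gave 0.47. The CNT cells with 1175, 510 and 161 S100A9 UMIs had 42, 39 and 23 EPCAM UMIs, of 128691, 95690 and 46554. The stricter cut thus leaves them out, while it keeps the leading 3CK cell, with 107 of 76142. The 3.48 is therefore in part set by that removal as well.

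Within the TTR ranges most CNT S100A9 UMIs fell into the lowest one, and 1 cell carried most of these. It held 1175 UMIs and had 47.6 TTR UMIs per 10000, just under the boundary of 50. Cells with under 50 TTR UMIs per 10000 held 1948 of the 2157 CNT UMIs, and stood at 333 CPM in CNT and 89.5 in 3CK (log2 ratio -1.89, and -1.51 without the leading cell of each library). Without the 10 leading cells of each library 3 UMIs were left in this range of CNT and 153 in that of 3CK, and its ratio turned to 3.83 (2.25 to 6.12), an alternative chosen after seeing the data. The range held 98 CNT and 284 3CK cells, so that removal takes a larger part of CNT and by itself favours a higher ratio. The range from 50 to 500 had 4.99 and 31.2 CPM (2.64, and 3.85 without the leading cells), and that over 500 had 68 and 26 UMIs, or 1.62 and 4.32 CPM (1.42). In mesenchymal cells S100A9 had 107 UMIs in CNT and 9 in 3CK (-2.46, -3.63 to -1.49), and 1 CNT cell held 62 of the 107. Leaving out the 10 leading cells there leaves no ratio.

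**Figure D4:**
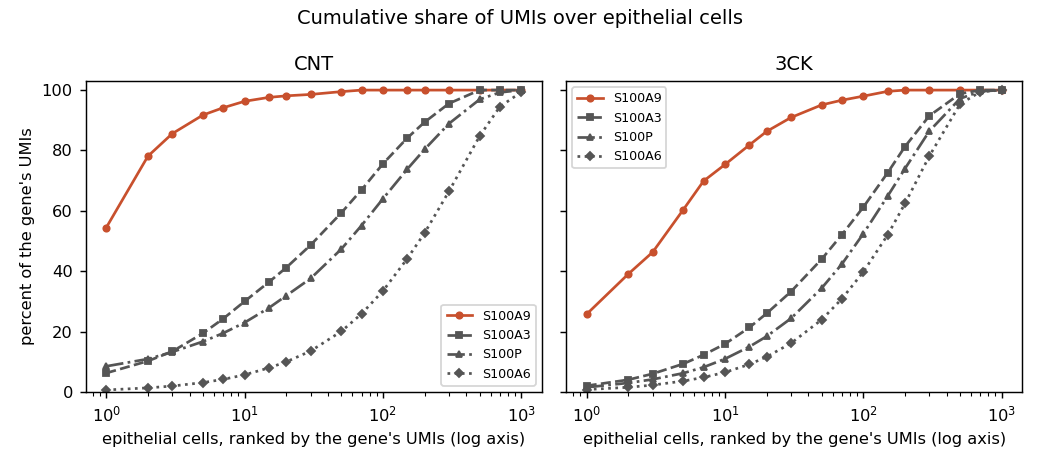
Cumulative percent of a gene's UMIs against the number of epithelial cells, ranked by their UMIs of that gene on a log axis, for S100A9, S100A3, S100P and S100A6 in CNT and 3CK. The S100A9 curve reaches 96.3% at 10 cells in CNT and 75.4% in 3CK, where S100A6 is at 5.73% and 6.55%.

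S100A8 was all but missing from both classes. Epithelial cells had 0 UMIs in CNT, which allows up to 0.0394 CPM, and 3 UMIs in 3CK, and mesenchymal cells had 0 and 1. All 41 CNT UMIs came from 1 cell that met neither class definition. In 3CK 724 of 782 UMIs (92.6%) came from 1 cell and 51 from another, both of neither class, and 7 further cells had 1 UMI each. S100A8 was thus found above a single UMI in 1 of 2487 CNT and 2 of 1398 3CK cells. S100A9 was far more common: 85 kept CNT cells and 208 kept 3CK cells had a UMI, and 1 and 3 of these also had S100A8.

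The cells with most S100A8 and S100A9 were also distinct in other genes. The leading 3CK cell had 201626 UMIs, of which 724 were S100A8 and 5138 S100A9, together 2.91% of its RNA. Of all S100A9 UMIs in kept 3CK cells, 56.3% were in it. It also held 48 UMIs of S100A7 and 15 of S100A12, neighbours in the cluster that are otherwise rare, 1286 of LCN2, a siderophore-binding antimicrobial protein, 572 of CALML5, a calcium-binding protein of differentiating keratinocytes, and 12 of EPCAM. CALML5 was picked after its value was seen. A list of 18 squamous markers, without CALML5, had 18 UMIs in this cell, from 4 of its genes, and IVL, SPRR3, KRT13 and KRT5 had 0. The CNT cell with all 41 S100A8 UMIs had 34924 UMIs in all, 741 of S100A9, 3 of S100A7, 96 of LUM, a collagen-associated proteoglycan, and 0 of LCN2. The squamous list had 0 UMIs in it. The CNT epithelial cell with 1175 S100A9 UMIs had 128691 in all, with 436 of SPRR3, 117 of IVL and 50 of KRT6A, genes of squamous epithelium, and 1418 of S100P, the most of any CNT epithelial cell. The doublet score of the leading 3CK cell was above that of 80.2% of kept 3CK cells. In CNT the cell with S100A8 was above 81.1% of kept cells and the one with 1175 S100A9 UMIs above 31.2%.

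Neutrophils and monocytes are the usual carriers of these genes, so a list of 18 myeloid markers was read in the same cells. PTPRC, the pan-leukocyte gene, had 0 UMIs in each of the 10 leading S100A9 cells of either library. Other genes of the list were seen in some of them: the list had 0 to 43 UMIs in those of CNT, where the cell with 43 had 12 of CD14 and 14 of CD68, and 1 to 36 in those of 3CK, where the cell with 36 had 15 of CD14 and 8 of CSF3R. In the leading 3CK S100A8 cell and in the CNT cell with S100A8, 1 UMI of the whole list was found in each. The 3CK cell with 51 S100A8 UMIs had 5 of the list among 23706 UMIs, 4 of them CSF3R. In that cell 19.1% of UMIs were mitochondrial, and its doublet score was above that of 98.2% of kept 3CK cells. In thinned epithelial cells with an S100A8 or S100A9 UMI the list averaged 0.438 UMIs per 5000 in 16 CNT cells and 0.771 in 35 3CK cells, and 0.615 and 0.622 in those without. The list was at 117 and 127 CPM in epithelial cells of CNT and 3CK, where 10 of its 18 genes reached 1 CPM. The list of 18 squamous markers averaged 6.13 UMIs per 5000 in the 16 CNT cells (0 to 28) and 1.37 in the 35 3CK cells (0 to 11), against 0.176 and 0.274 in cells without. A squamous UMI was found in 56.3% of the CNT carriers and 12.5% of the other CNT cells, and in 42.9% and 14.8% in 3CK. The 5 genes KRT5, KRT6B, KRT4, SPRR1A and LOR had 0 UMIs in carriers and in other cells of both libraries, so the list was not seen as a whole. The squamous list was not alone in differing. A list of 19 secreted host-defence genes averaged 5.25 UMIs per 5000 in CNT carriers and 1.66 in other CNT cells, and 57.6 and 20.1 in 3CK. The 10 hepatic markers averaged 308 in carriers and 499 in other cells of CNT, and 128 and 183 in 3CK.

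**Figure D5:**
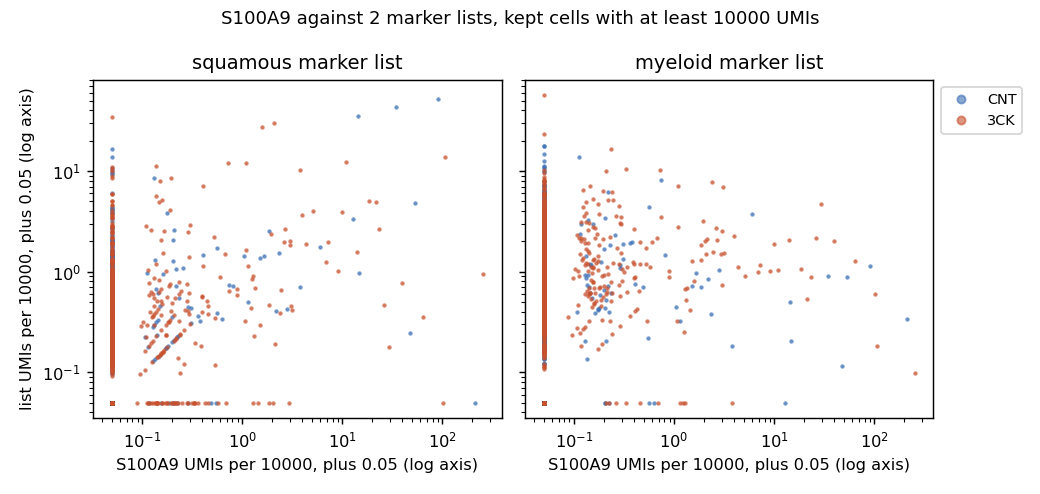
Summed UMIs per 10000 of 18 squamous markers (left) and 18 myeloid markers (right) on the vertical axis against S100A9 UMIs per 10000 on the horizontal axis, 1 point per kept cell with at least 10000 UMIs, with 0.05 added on both log axes. Several cells with high S100A9 also have high squamous sums, and the cells with the highest myeloid sums have little or no S100A9.

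Annexins, which S100A10, S100A11 and S100A6 bind at membranes, were described from a list of 9. In epithelial cells 1 was at least 2-fold higher in 3CK and 2 were lower, with a median log2 ratio of 0.27. Of all genes 8.48% were higher and 12.1% lower there, so counts this small say little about annexins as a group. ANXA1, the partner of S100A11, was at 200 CPM in CNT and 596 in 3CK (1.58). ANXA2, the partner of S100A10, was at 1114 and 1620 (0.54), so it was higher where S100A10 was lower. ANXA11, a partner of S100A6, was at 152 and 202 (0.40), and ANXA13, an annexin of intestinal epithelium, at 96.2 and 25.7 (-1.91). In mesenchymal cells 0 were higher and 1 was lower, ANXA13 at 26 and 3 UMIs, against 6.05% and 16.7% of all genes. Other binding partners moved little: 0 of 10 passed 2-fold in either class, with CACYBP at 70.8 and 78.3 CPM and EZR, the ezrin gene, at 300 and 397 in epithelial cells. PLAT had the smallest ratio of that list (-0.16).

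Receptors reported for S100 proteins outside the cell were a list of 9, of which 2 were at least 2-fold higher and 1 lower in epithelial cells. Over all genes the shares there were 8.48% and 12.1%. TLR4, which senses S100A8 and S100A9, was at 61 UMIs in CNT and 307 in 3CK (0.801 and 4.38 CPM, log2 ratio 2.45), and in mesenchymal cells at 5.39 and 12.2 CPM (1.17). AGER, the receptor for advanced glycation end products, was at 1.46 and 1.26 CPM (-0.22, an interval from -0.64 to 0.20). BSG, the highest gene of the list, was at 478 and 427 CPM, and CD36 at 4.46 and 0.699 (-2.67).

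Transcription factors reported for S100A8 and S100A9, or activated by the added cytokines, were a list of 11. Of the 10 with at least 1 CPM in epithelial cells, 6 were at least 2-fold higher (among them CEBPB, CEBPD, STAT3, NFKBIZ and IRF1) and 1 was lower, with a median log2 ratio of 1.47. Over all genes 8.48% were higher and 12.1% lower in these cells. CEBPB was at 32.0 and 125 CPM (1.97), STAT3 at 55.1 and 168 (1.61), IRF1 at 16.7 and 380 (4.51) and CEBPA at 54.5 and 22.2 (-1.30). Secreted host-defence genes, a list of 19, had 10 of 13 at least 2-fold higher and 0 lower, with a median of 3.70. LCN2 was at 15.1 and 702 CPM (5.54) and was found in 2.07% of thinned CNT and 33.9% of thinned 3CK epithelial cells, where S100A9 was found in 1.51% and 4.51%. In mesenchymal cells LCN2 was found in 0.625% and 15.0% of thinned cells. TTR, a gene of other cells, was found there in 98.1% and 64.5%, but its epithelial level was far higher. Thinned 3CK mesenchymal and epithelial cells averaged 0.234 and 3.52 LCN2 UMIs, and 1.45 and 97.8 TTR UMIs. Whether mesenchymal cells express LCN2 or hold RNA of other cells was not tested. PIGR, the carrier of secreted IgA, had the largest ratio of the list, at 20 and 7882 UMIs (8.74), SAA1, an acute-phase protein, was the most abundant, at 71.9 and 933 CPM (3.70), and PI3, an elastase inhibitor, had the smallest ratio (-0.65). In mesenchymal cells 3 of 11 regulators were higher and 0 lower, and 11 of 13 host-defence genes were higher and 1 lower. The part of RNA from other cells in these counts was not tested. Over all genes 6.05% were higher and 16.7% lower there.

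The remaining lists were read as markers of other cells. Over all genes 8.48% were at least 2-fold higher and 12.1% lower in epithelial cells, and 6.05% and 16.7% in mesenchymal cells. In epithelial cells 4 of 11 squamous genes were at least 2-fold higher and 4 lower, among them SPRR2A at 2.73 and 25.8 CPM and SPRR3 at 14.5 and 1.47. Of 10 myeloid genes with at least 1 CPM, 1 was higher and 3 were lower, and PTPRC had 18 and 6 UMIs. FCER1G, the most abundant of these, was at 48.2 and 49.6 CPM, and the ratios ran from -2.60 for CD163 to 1.62 for LST1. Hepatic genes had 0 higher and 7 lower of 10, with ratios from -2.21 for APOB to -0.26 for SERPINA1. Mesenchymal genes had 0 higher and 8 lower of 10, from -3.20 for COL1A1 to -0.51 for VIM. Enteroendocrine genes had 1 higher and 3 lower of 6, from -4.47 for SST to 1.66 for GHRL, and endothelial genes 0 and 1 of 4, from -2.28 for VWF to 0.53 for PECAM1. Cycling genes had 0 and 0 of 7, from 0.04 for BIRC5 to 0.56 for MKI67, and epithelial genes 1 and 1 of 10, from -2.15 for VIL1 to 1.01 for ELF3. Among S100 fused-type genes, large relatives of the skin barrier, TCHH alone reached 1 CPM of 7, at 1.72 and 2.04. In mesenchymal cells 7 of 9 myeloid genes were higher, with CD68 at 26.7 and 91.4 CPM and PTPRC at 11 and 33 UMIs, beside the ratios of S100A6, S100A11 and S100A16 there. The part of these shifts in cell content in the S100 ratios was not tested.

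Likeness between genes was described by Pearson's r of log-scaled levels across 730 3CK epithelial cells with at least 10000 UMIs, over 18663 genes seen in at least 20 of them. These cells share 1 library and differ in depth and RNA content, so r is a description. For S100A9, with a UMI in 158 of the cells, the closest genes were VTCN1 (0.39), SPRR3 (0.38), IL17C (0.32), SP6 (0.31) and EPN3 (0.31), each weak. S100A8 had a UMI in 3 of the cells and none was computed. S100A6 was closest to S100A16 (0.70), followed by TMSB10 (0.69), S100A11 (0.69) and S100A10 (0.68), and S100A14 to S100A16 (0.59). S100A3 was closest to EMP3 (0.50), with S100A6 among its 5 (0.49), and S100P to EDF1 (0.46), with no S100 gene among its 5.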

How the data were processed

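Single-cell RNA from 2 libraries, CNT and 3CK, was measured with 10x Genomics 3′ chemistry. The deposited matrices hold UMI counts per gene and barcode, and Cell Ranger 7.1.0 and GRCh38 are named in the submitters' processing notes. Barcodes with at least 500 genes and at most 20% mitochondrial UMIs were kept, which removed 718 in CNT and 227 in 3CK. Scrublet scores (scanpy 1.11.5, Python 3.11.15) were then used to remove 0.8% of barcodes per 1000 as doublets, 52 and 16. UMIs of a class were summed per library and divided by the total of the class (CPM). The log2 ratio of 3CK over CNT has a 95% interval, taken from an exact binomial one on the part of both libraries' UMIs that 3CK holds, levels have exact Poisson intervals and shares of cells have Clopper-Pearson intervals. PCR and sampling of cells are not in these intervals, which cover counting error only. A gene with 0 UMIs in a library was set to 3 UMIs there, and no ratio was formed where both had 3 or fewer. With 1 library per group there was no test.

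The members and all gene lists were chosen with earlier results of these data known. The genes named are the members, other S100 genes with at least 1 CPM, and in each list the most abundant gene and those with the largest and the smallest epithelial ratio. Other named genes (among them ANXA11, CACYBP, CEBPB, STAT3, the tissue markers and the genes of single cells) were fixed as partners or chosen after their values were seen. The ratio and its interval were tested on simulated data. Alternatives changed the filter, the doublets, the scaling, the weighting, the classes, the thinning depth and the CPM minimum. Identity between the proteins had been planned and was not computed. Some genes that this rule or the lists include are not reported here.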

Additional observations from a re-analysis of the deposited data

Results flagged for a closer look

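The log2 ratios of S100A9 and S100A13 had opposite signs in the classes. S100A9 was at 0.66 in epithelial and -2.46 in mesenchymal cells, where the CNT value rested on 107 UMIs, 62 of them in 1 cell. S100A13 was at -1.29 in epithelial and 0.0866 in mesenchymal cells. With 1 library per group the difference between the classes was not tested.

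Some signal lay outside the classes and the kept cells. Cells of neither class held 41 S100A8 UMIs in CNT and 778 in 3CK, where the epithelial and mesenchymal cells together had 0 and 4. Among the 3CK barcodes left out by the filter there were 25 S100A9 UMIs, and among those removed as doublets 670, of which 665 were in 1 barcode.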

How the results depend on the processing

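Each of the 18 member ratios was recomputed under up to 10 alternatives, 179 values in all, and 15 kept 1 sign throughout. The exceptions were S100A16 in epithelial cells and S100A4 and S100A10 in mesenchymal cells. Of the 6 ratios past 2-fold, 4 were past it under every alternative run. S100A6 in epithelial cells was not (0.90 with the total without abundant genes and 0.92 with cells weighted equally), nor was S100A3 in mesenchymal cells (0.90 with no doublets removed and 0.95 with no filter). The epithelial ratio of S100A9 ranged from 0.47 to 3.48, the latter with stricter classes, which leave out the CNT epithelial cell with most S100A9. The mesenchymal ratio of S100A9 could not be formed without the 10 leading cells. The S100A9 ratio in epithelial cells with little TTR turned from -1.89 to 3.83 without the 10 leading cells, an alternative chosen after seeing the data. With 98 CNT and 284 3CK cells in that range, removing 10 from each takes a larger part of CNT and favours a higher ratio by itself.

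The median of the members in epithelial cells (0.66) was 0.84 with no filter, with no doublets removed and with stricter classes, 0.47 with 5% of barcodes removed as doublets, 0.54 with the total without abundant genes, 0.82 with cells weighted equally and 0.85 without the 10 leading cells. The mesenchymal median (0.71) was 0.89 with TMM and with cells weighted equally, 0.84 with stricter classes and 0.82 with at least 10 CPM. The count of members at least 2-fold higher in mesenchymal cells (1) was 0 with no doublets removed, 2 with 5% removed, 4 with TMM, 3 with cells weighted equally, 2 with at least 10000 UMIs per cell and 4 with stricter classes, where 6.03%, 6.29%, 7.68%, 7.06%, 6.14% and 7.04% of all genes were, and the count lower (2) was 1 without the 10 leading cells and 1 with at least 10 CPM. The median of all genes moved from 0.01 to 0.04 with TMM and -0.11 with the total without abundant genes in epithelial cells, and from -0.21 to -0.03 and -0.25 in mesenchymal cells. The share of epithelial S100A9 UMIs in the 10 leading cells was 95.1% in CNT and 81.5% in 3CK after thinning, and 78.2% in 3CK with no doublets removed. The share of 3CK S100A8 UMIs in the leading cell was 74.2% after thinning. The epithelial median of 0.66 is the ratio of S100A9 itself, and 0.47 is its ratio with 5% of barcodes removed as doublets. The cause of the other shifts was not tested.

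No paired analysis was possible because each group is 1 library, and for the same reason no replicate could be left out. In mesenchymal cells 1 UMI was worth 0.0509 CPM in CNT and 0.110 in 3CK, which limits S100A8, S100A9 and S100A14 there.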
